A study of Homo sapiens with 6 samples.

Results

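The genes examined were the dual-specificity phosphatases, the Sprouty and SPRED genes, and the immediate-early and ETS transcription factor genes that are commonly read as the output and the brakes of MAP kinase signalling. They were chosen by symbol and biotype: protein-coding genes of the deposited table named DUSP and a number, SPRY1 to SPRY4, SPRED1 to SPRED3, EGR1 to EGR4, IER2, IER3, IER5, IER5L, PHLDA1 to PHLDA3, FOS, FOSB, FOSL1, FOSL2, JUN, JUNB, JUND, ETV1, ETV4 and ETV5. This gave 52 genes of the 58735 in the table. In NCI-N87 cells with SCAMP1 knockdown, 13 of the 43 genes tested were called (30.2%), against 14.0% of all genes tested. Transcripts of DUSP4, DUSP5, DUSP6, DUSP3 and PHLDA1 were called higher in all 16 alternative analyses. DUSP1 also rose and DUSP9, SPRY1 and EGR1 fell, but these calls were lost when some single libraries were left out. NCI-N87, a long-established human line, was derived from a gastric carcinoma. Cells carrying the control lentivirus (shNC) or a lentivirus with an shRNA against SCAMP1 (shScamp1) were selected with puromycin (2 μg/ml) as stable populations, and RNA of 3 libraries per group was sequenced. The series' own design text calls the groups shCtrl and shS1#1, and the study's methods describe the control as the empty vector, so the controls carried no hairpin and a single shRNA stands for the knockdown. The labels call the libraries biological replicates without saying whether they came from separate infections, so p-values measure the spread between these libraries.

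Mitogen-activated protein (MAP) kinases are switched on by phosphorylation of a threonine and a tyrosine, and the classical MAP kinase phosphatases of the DUSP family remove both phosphates. DUSP1, DUSP2, DUSP4 and DUSP5 are inducible nuclear enzymes, DUSP6, DUSP7 and DUSP9 are cytoplasmic and prefer ERK, and DUSP8, DUSP10 and DUSP16 act mainly on JNK and p38. Sprouty and SPRED proteins restrain the RAS-ERK cascade upstream, while many, but not all, FOS, JUN, EGR and IER genes are transcribed within minutes of a growth factor signal. The PEA3 group of ETS factors (ETV1, ETV4 and ETV5) and PHLDA1 are widely used as transcripts that follow ERK activity.

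Expression was given as FPKM, a fragment count scaled for gene length and library depth. The libraries held 14311769 to 15988700 reads on genes, recovered from the FPKM values. The target of the shRNA, SCAMP1, measured 12.6, 12.1 and 11.5 FPKM in shNC and 1.70, 1.37 and 1.99 FPKM in shScamp1 libraries (log2 fold change -2.78, standard error 0.14, limma adjusted p = 0.000248). Of 5 epithelial markers, EPCAM, CDH1, KRT8, KRT18 and KRT19, all were at 54.5 FPKM or more in every library, with a summed level of 4221 to 4434 FPKM in shNC and 7727 to 8494 FPKM in shScamp1 cells. Of 6 gastric markers, TFF1 was at 0 and the other 5 had a mean under 0.5 FPKM, with a summed level of 0.205 to 0.415 FPKM in shNC and 0.713 to 1.31 FPKM in shScamp1 cells. Of 6 fibroblast markers 4 were at 0 (summed level 0.533 to 0.675 and 0.487 to 0.773 FPKM), and the summed level of 3 endothelial markers was 0.139 to 0.235 FPKM in shNC and 0.381 to 0.612 FPKM in shScamp1 cells. The leukocyte markers PTPRC, CD3E and CD68 were at or below 0.0313 FPKM, while CD79A was at 0.965 to 1.16 FPKM in shNC and at 1.85 to 4.05 FPKM in shScamp1 cells. ShScamp1 replicate 2 stood apart from the other libraries: 9.21% of its reads were mitochondrial, against 6.09% to 6.78% in the others, and its log2 level fell by 0.235 from the lowest to the highest decile of genes by GC content, against differences between -0.015 and 0.176 in the others. Results that turn on this library are therefore given with and without it.

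A gene entered the test where its mean over the 6 libraries reached 0.5 FPKM. Testing was with limma on log2(FPKM + 0.1), and a gene was called at a Benjamini-Hochberg adjusted p under 0.05 over all 15556 genes tested. Of the 52 genes, 43 passed this filter and 13 of them (30.2%) were called, against 14.0% of all genes tested, which include other biotypes. Of the 13, 10 were higher (background 8.82%) and 3 were lower (background 5.17%) in shScamp1 cells. DUSP4 alone also had an absolute log2 fold change above 1, a threshold that 3.16% of all genes passed together with the adjusted p. The median log2 fold change was 0.03 over the 43 genes and -0.02 over all genes tested. The groups did not overlap for 19 of the 43 genes, which was close to the background of 41.4%. Without shScamp1 replicate 2, 15 genes were called higher and 5 lower, 20 of 43, while the background itself rose to 27.8%. The 43 genes are all protein-coding, and a fit on protein-coding genes alone called 18 of them, beside 2626 of 11529 genes. In bulk RNA, a higher level in each cell cannot be told apart from a larger number of cells with the transcript.

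**Figure D1:**
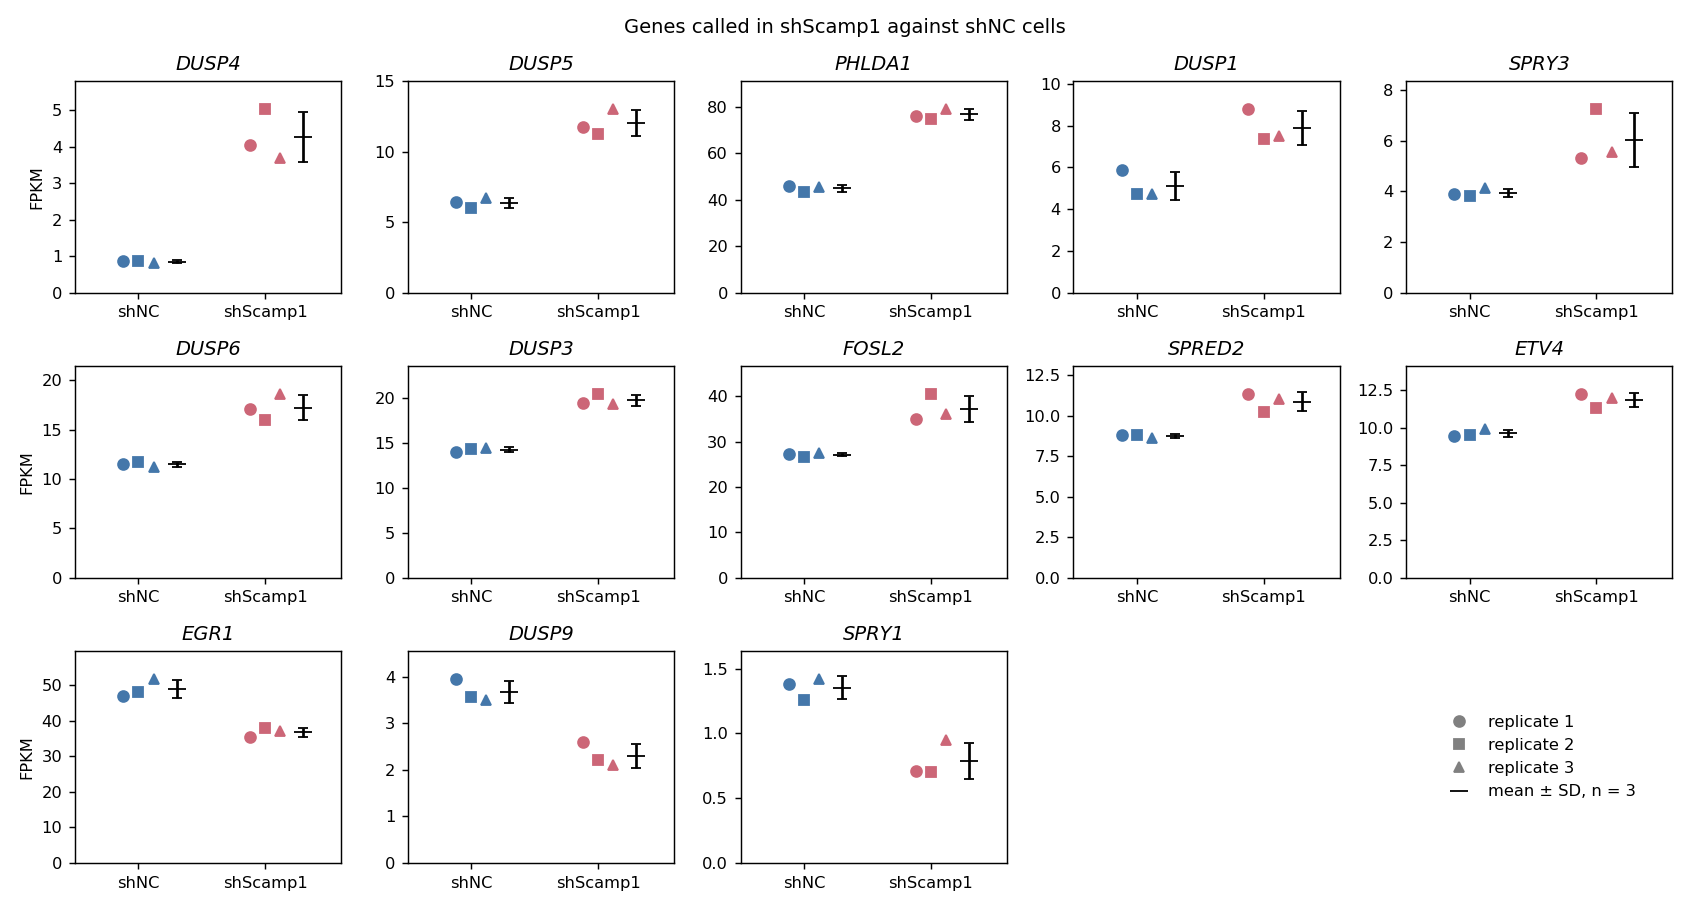
FPKM (vertical axes, from 0) of the 13 called genes in each library, with shNC in blue and shScamp1 in red, the replicate as the symbol, and the mean ± SD (n = 3) in black. In each panel the 3 shScamp1 libraries lie all above (10 genes) or all below (3 genes) the 3 shNC libraries, and DUSP4 shows the widest relative gap, from 0.850 to 4.26 FPKM on average.

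Of the 8 genes whose RefSeq promoter windows held a binding motif for signal-responsive factors, 6 are shown, and JUND and SPRED3, with 1 site each of a kind already shown, are left out. RefSeq windows (GRCh38.p14) that run from 250 bases before to 50 bases after an annotated start were given for 39 of the 52 genes, 58 windows in all. They were searched on both strands for the CArG box bound by SRF, the AP-1 sites TGAGTCA and TGACTCA, the cyclic AMP response element TGACGTCA and the ETS site CCGGAAGT, motifs that do not overlap in the windows shown. The CArG box was in 2 of the 58 windows (3.45%, against 1.30% of 34961 RefSeq windows), an AP-1 site in 3 (5.17%, against 4.92%), the cyclic AMP response element in 3 (5.17%, against 1.85%) and the ETS site in 0 (against 4.14%). Any of the 4 motifs was in 8 windows (13.8%, against 11.8%). The 13 genes without a window, which include DUSP4, DUSP5 and ETV4, were not searched. Capitals mark the motifs, and positions are counted from 0 at the RefSeq start of the window shown, which can differ from the gene start of the deposited table. EGR1 (chr5:138465229-138465528, forward strand) has CArG boxes from -105 and -83 and EGR2 (chr10:62816317-62816616, reverse strand) has one from -71. FOSL2 (chr2:28392608-28392907, forward strand) has an AP-1 site from 4, and SPRED2 (chr2:65366729-65367028, reverse strand, the inner of its windows) has one from -6. DUSP1 (chr5:172771146-172771445, reverse strand) has a cyclic AMP response element from -125, and DUSP8 (chr11:1572222-1572521, reverse strand) has a pair, from -118 and -74.
EGR1: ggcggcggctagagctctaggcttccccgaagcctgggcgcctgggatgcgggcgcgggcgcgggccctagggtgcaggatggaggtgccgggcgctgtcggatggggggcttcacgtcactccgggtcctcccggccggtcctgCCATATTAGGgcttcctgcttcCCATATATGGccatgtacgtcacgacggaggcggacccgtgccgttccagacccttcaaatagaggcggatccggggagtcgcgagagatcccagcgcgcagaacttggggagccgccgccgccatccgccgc
EGR2: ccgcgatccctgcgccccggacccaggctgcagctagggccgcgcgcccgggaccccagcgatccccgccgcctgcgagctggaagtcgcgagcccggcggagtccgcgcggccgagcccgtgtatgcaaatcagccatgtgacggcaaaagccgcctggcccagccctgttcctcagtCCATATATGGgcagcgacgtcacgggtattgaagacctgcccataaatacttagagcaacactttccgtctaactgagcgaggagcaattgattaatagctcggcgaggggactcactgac
FOSL2: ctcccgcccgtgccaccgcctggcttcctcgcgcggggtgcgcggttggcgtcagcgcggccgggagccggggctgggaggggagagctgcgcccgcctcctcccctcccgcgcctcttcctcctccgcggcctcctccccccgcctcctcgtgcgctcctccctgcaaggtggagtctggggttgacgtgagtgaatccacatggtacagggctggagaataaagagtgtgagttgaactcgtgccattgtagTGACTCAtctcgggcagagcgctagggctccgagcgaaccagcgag
SPRED2: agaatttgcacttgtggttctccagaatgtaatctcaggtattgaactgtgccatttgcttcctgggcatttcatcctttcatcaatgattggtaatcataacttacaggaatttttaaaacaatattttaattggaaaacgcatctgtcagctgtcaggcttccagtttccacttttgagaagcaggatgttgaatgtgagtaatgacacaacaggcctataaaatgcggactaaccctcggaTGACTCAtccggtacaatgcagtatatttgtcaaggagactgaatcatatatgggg
DUSP1: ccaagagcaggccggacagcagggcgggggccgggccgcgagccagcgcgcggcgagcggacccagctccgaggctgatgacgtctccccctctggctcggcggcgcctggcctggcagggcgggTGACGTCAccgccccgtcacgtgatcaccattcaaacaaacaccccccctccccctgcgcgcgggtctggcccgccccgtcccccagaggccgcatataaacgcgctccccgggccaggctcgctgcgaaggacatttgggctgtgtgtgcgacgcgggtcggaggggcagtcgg
DUSP8: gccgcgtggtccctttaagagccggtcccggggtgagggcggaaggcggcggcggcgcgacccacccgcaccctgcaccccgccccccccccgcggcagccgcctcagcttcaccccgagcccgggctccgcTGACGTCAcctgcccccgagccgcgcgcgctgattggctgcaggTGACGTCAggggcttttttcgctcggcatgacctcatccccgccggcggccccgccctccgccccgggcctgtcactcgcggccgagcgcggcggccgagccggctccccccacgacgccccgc

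The genes with these windows did not move together. EGR1 fell while FOSL2, SPRED2 and DUSP1 rose, DUSP8 was not called and EGR2 was too low to be tested. JUND and SPRED3, the other genes with a motif, were not called.

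Among the classical MAP kinase phosphatases, DUSP4, DUSP5, DUSP1 and DUSP6 rose, DUSP9 fell, and DUSP2, DUSP7, DUSP8 and DUSP16 were not called. DUSP4, a nuclear phosphatase induced by ERK signalling, lies on chromosome 8 from 29333064 to 29350668 (GRCh38, as all gene coordinates here). It was at 0.869, 0.868 and 0.812 FPKM in shNC and at 4.05, 5.04 and 3.70 FPKM in shScamp1 libraries, from 91 to 501 reads per library. The lowest shScamp1 library was thus far above the highest shNC library, and the spread within the shNC group was small. The log2 fold change was 2.19 (standard error 0.14, limma adjusted p = 0.000566) and fits that each dropped 1 library gave 2.06 to 2.28. DUSP5, a nuclear phosphatase specific for ERK, lies on chromosome 10 from 110497838 to 110511544. It was at 6.42, 5.99 and 6.71 FPKM in shNC and at 11.8, 11.3 and 13.1 FPKM in shScamp1 libraries, with no overlap. Its log2 fold change was 0.91 (standard error 0.08, limma adjusted p = 0.00174), and reached 1.01 after removal of trends with GC content and gene length.

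DUSP6, the cytoplasmic phosphatase that binds and inactivates ERK1 and ERK2, lies on chromosome 12 from 89347232 to 89353271. Its level was 11.6, 11.7 and 11.2 FPKM in shNC and 17.1, 16.0 and 18.7 FPKM in shScamp1 libraries. Every shScamp1 library was above every shNC library, and the log2 fold change was 0.58 (standard error 0.08, limma adjusted p = 0.00582). An antisense transcript, AC024909.2, covers 40.5% of the exonic bases of DUSP6 and had a mean of 0.179 FPKM, and no source used here says whether reads were counted by strand. DUSP1, the founding inducible phosphatase of the family, lies on chromosome 5 from 172768090 to 172771195. It was at 5.87, 4.73 and 4.71 FPKM in shNC and at 8.82, 7.34 and 7.52 FPKM in shScamp1 libraries. The groups were separate, with replicate 1 the highest in both, and the log2 fold change was 0.62 (standard error 0.12, limma adjusted p = 0.0210). The adjusted p of DUSP1 was between 0.0643 and 0.0948 without shNC replicate 2, shNC replicate 3 or shScamp1 replicate 3.

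DUSP9, an ERK-preferring cytoplasmic phosphatase, lies on chromosome X from 153642492 to 153651326. It was at 3.95, 3.57 and 3.50 FPKM in shNC and at 2.59, 2.21 and 2.09 FPKM in shScamp1 libraries, a direction opposite to that of DUSP6. The log2 fold change was -0.66 (standard error 0.11, limma adjusted p = 0.0128), with an adjusted p between 0.0521 and 0.0660 without any 1 of the shNC libraries or without shScamp1 replicate 3. DUSP2, a nuclear phosphatase known from activated lymphocytes, was at 15.4, 15.7 and 15.5 FPKM in shNC and at 12.5, 9.15 and 12.1 FPKM in shScamp1 libraries. Its groups did not overlap, but the spread within shScamp1 was wide and it was not called (log2 fold change -0.48, standard error 0.13, limma adjusted p = 0.0550). Without shScamp1 replicate 2, the lowest library, the log2 fold change was -0.33 and the adjusted p was 0.00305. DUSP16, which acts on JNK, was at 10.8, 8.90 and 10.6 FPKM in shNC and at 9.20, 13.3 and 11.3 FPKM in shScamp1 libraries. These ranges overlapped, as did those of DUSP7 (log2 fold change 0.02) and DUSP8 (-0.01), and none of the 3 was called under any alternative. DUSP10, a JNK and p38 phosphatase, had a mean under the filter and was not tested. It was at 0.216, 0.185 and 0.311 FPKM in shNC and at 0.822, 0.777 and 0.493 FPKM in shScamp1 libraries, from 9 to 35 reads per library. With no filter on level its log2 fold change was 1.23 and its limma adjusted p was 0.0982.

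Within the pool of classical phosphatases, the shares of several genes did not overlap between the groups. Summed over the 10 classical phosphatases, the transcripts came to 62.5 ± 1.42 FPKM in shNC and 76.2 ± 1.23 FPKM in shScamp1 cells (SD, n = 3 each), a ratio of 1.22, and every shScamp1 sum was above every shNC sum (p = 0.1 by an exact two-sided permutation test, the smallest value that 3 libraries against 3 allow). DUSP2 made up 24.9% ± 0.746 of this sum in shNC cells and was the most abundant of the 10, but made up 14.8% ± 2.30 in shScamp1 cells (SD, n = 3 each). Its share was 16.5%, 12.2% and 15.6% in shScamp1 replicates 1, 2 and 3, lowest in replicate 2. DUSP6 was the most abundant in shScamp1 cells, where its share was 22.6% ± 1.36, against 18.4% ± 0.743 in shNC cells. The share of DUSP5 went from 10.2% ± 0.438 to 15.8% ± 0.963, and that of DUSP4 from 1.36% ± 0.0664 to 5.61% ± 0.992. The share of DUSP9 went from 5.87% ± 0.318 to 3.02% ± 0.367. For these 5 genes the shares did not overlap between the groups, nor did they for DUSP1, DUSP7 and DUSP10. The exact permutation p was 0.1 for each of them, not adjusted over the 10 shares compared. A share within a library does not depend on the scaling between libraries, but it does depend on the other genes in the sum. The share of DUSP7 went from 7.62% to 6.33%, while its log2 fold change was 0.02. DUSP2, DUSP5 and DUSP16 took neighbouring places in shScamp1 cells, with shares whose ranges overlapped.

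**Figure D2:**
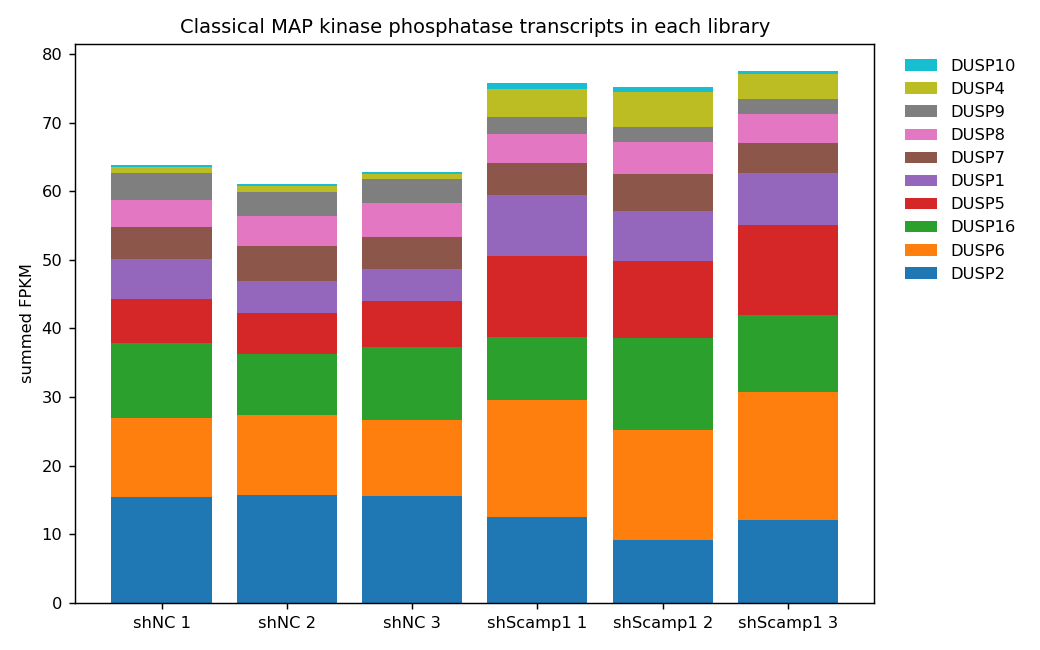
Summed FPKM (vertical axis) of the 10 classical MAP kinase phosphatases in each of the 6 libraries, stacked by gene. The totals lie between 61.0 and 63.8 FPKM in shNC and between 75.2 and 77.6 FPKM in shScamp1 libraries, with a smaller DUSP2 block and larger DUSP4, DUSP5 and DUSP6 blocks in the latter.

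Of the 14 other DUSP genes, 8 were tested and DUSP3 was called (12.5% of the 8, beside 14.0% of all genes tested). DUSP3, a small phosphatase without the MAP kinase binding domain that acts on ERK and JNK, lies on chromosome 17 from 43766121 to 43778988. It was at 14.0, 14.4 and 14.5 FPKM in shNC and at 19.5, 20.5 and 19.4 FPKM in shScamp1 libraries. All 3 shScamp1 libraries were higher by a similar amount, and the log2 fold change was 0.47 (standard error 0.06, limma adjusted p = 0.00524). DUSP11, DUSP12, DUSP14, DUSP22, DUSP23 and DUSP28 had log2 fold changes between -0.23 and -0.17 and DUSP18 one of 0.10, with overlapping groups. In the first 6 genes the lowest library was shScamp1 replicate 2, whose level was 0.626 to 0.772 times the mean of the other shScamp1 libraries, and without it their log2 fold changes lay between -0.05 and 0.02. DUSP18 and DUSP28 share 34.4% and 12.5% of their exonic bases with genes on the opposite strand, SLC35E4 and ANKMY1, so their values are uncertain. The other 6 genes were low or silent. DUSP19 was at 0.140 to 0.289 FPKM over the libraries, DUSP13, DUSP15 and DUSP27 were covered by at most 2 reads in any library, and DUSP21 and DUSP26 are listed at 0 throughout.

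**Figure D3:**
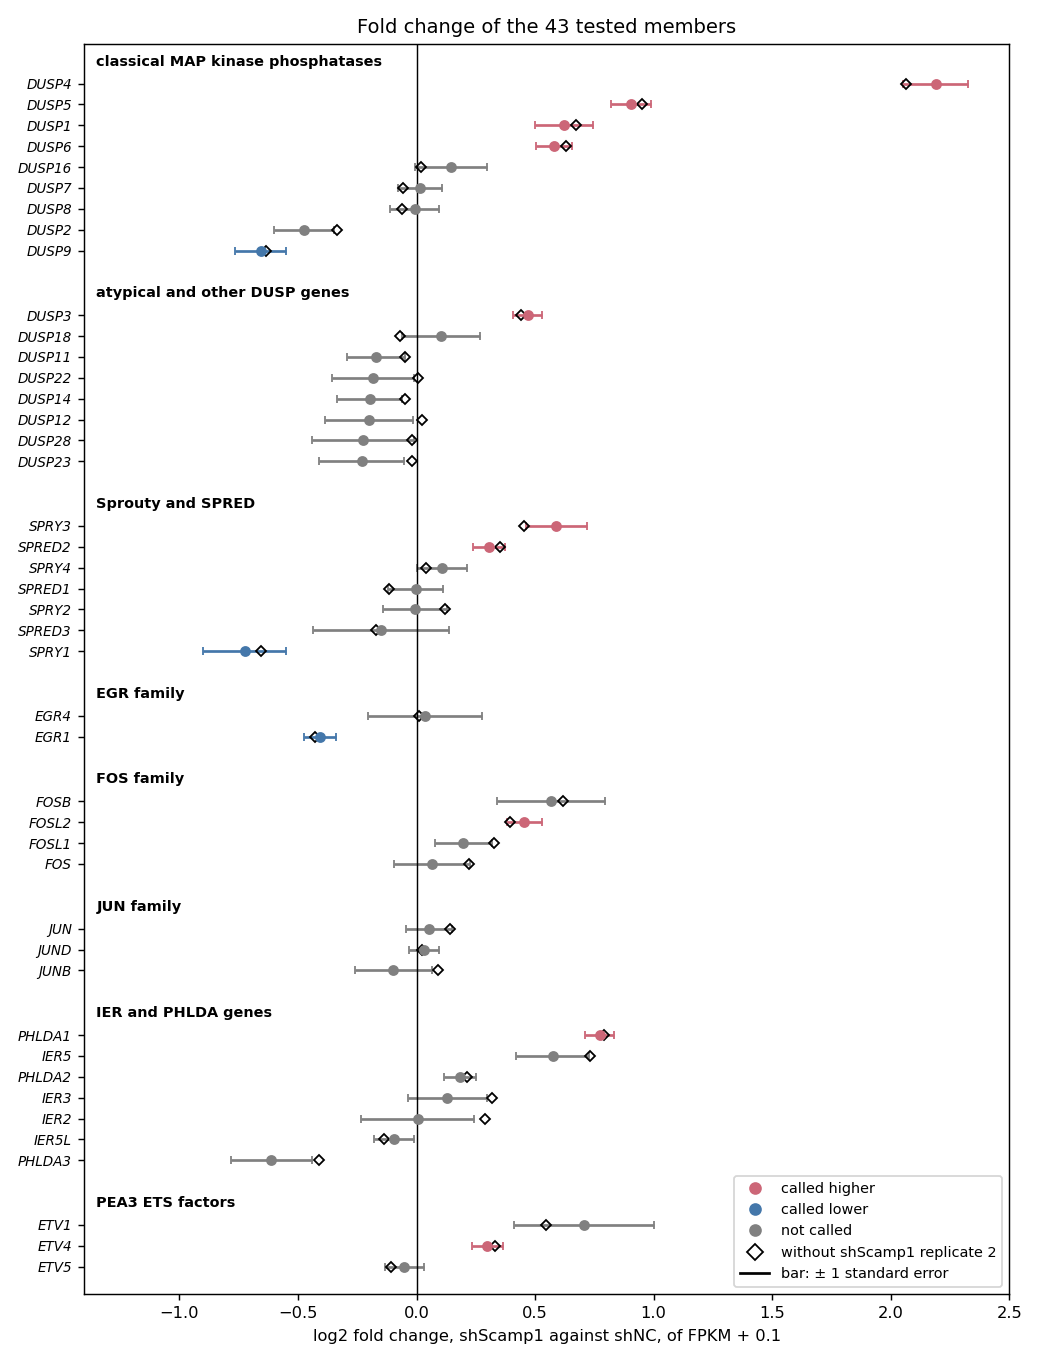
Log2 fold change of FPKM + 0.1 in shScamp1 against shNC cells (horizontal axis) for the 43 tested genes by family, with bars of ± 1 standard error, red for genes called higher, blue for lower and grey for not called. Open diamonds give the value without shScamp1 replicate 2; DUSP4 at 2.19 and SPRY1 at -0.73 mark the extremes.

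The Sprouty and SPRED genes moved in both directions: SPRY3 and SPRED2 rose, SPRY1 fell, and SPRY2, SPRY4, SPRED1 and SPRED3 were not called. SPRY1, an inhibitor of receptor tyrosine kinase signalling to ERK, lies on chromosome 4 from 123396795 to 123403760. It was at 1.38, 1.26 and 1.42 FPKM in shNC and at 0.708, 0.700 and 0.949 FPKM in shScamp1 libraries, from 38 to 87 reads per library. The groups were separate, and the log2 fold change was -0.73 (standard error 0.17, limma adjusted p = 0.0422). SPRY3, on chromosome X from 155767812 to 155782459 in the pseudoautosomal region that X and Y share, where reads cannot be told apart between copies, was at 3.89, 3.82 and 4.13 FPKM in shNC and at 5.30, 7.27 and 5.56 FPKM in shScamp1 libraries. ShScamp1 replicate 2 was the highest, and the log2 fold change was 0.59 with all libraries (standard error 0.13, limma adjusted p = 0.0322) and 0.45 without it (adjusted p = 0.00614). SPRED2, which keeps RAF from being activated by RAS, lies on chromosome 2 from 65310851 to 65432637. Its level was 8.80, 8.81 and 8.60 FPKM in shNC and 11.3, 10.2 and 11.0 FPKM in shScamp1 libraries, a log2 fold change of 0.31 (standard error 0.07, limma adjusted p = 0.0322). These 3 calls held without shScamp1 replicate 2, but each was lost without any 1 of the shNC libraries or without shScamp1 replicate 3, and those of SPRY1 and SPRED2 also without shScamp1 replicate 1, with adjusted p values from 0.0533 to 0.152.

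SPRY2 and SPRY4, the Sprouty genes most often used as ERK output, had log2 fold changes of -0.01 and 0.11 and overlapping groups. SPRY2 was at 2.28, 2.03 and 2.13 FPKM in shNC and at 2.34, 1.78 and 2.34 FPKM in shScamp1 libraries, and SPRY4 at 4.45, 4.60 and 5.34 FPKM in shNC and at 4.73, 5.67 and 5.12 FPKM in shScamp1 libraries. The 7 genes summed to 27.6 ± 0.608 FPKM in shNC and 31.6 ± 1.57 FPKM in shScamp1 cells (SD, n = 3 each; exact two-sided permutation test, p = 0.1). SPRED2 made up 31.6% of this sum on average in shNC and 34.4% in shScamp1 cells. On the log scale, where each gene weighs the same, the mean log2 difference over the 7 genes was 0.02.

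EGR1, a zinc-finger factor and one of the fastest growth factor response genes, fell, and it held 96.8% to 98.0% of the EGR transcripts in each library. It lies on chromosome 5 from 138465490 to 138469315. It was at 46.8, 47.9 and 51.7 FPKM in shNC and at 35.4, 37.8 and 37.0 FPKM in shScamp1 libraries, from 1621 to 2506 reads per library. All 3 shScamp1 libraries were lower, replicate 2 included, and the log2 fold change was -0.41 (standard error 0.07, limma adjusted p = 0.0132). The adjusted p was 0.0581 after removal of trends with GC content and gene length, where the log2 fold change was -0.33, and between 0.0548 and 0.0670 without any 1 of the shNC libraries or without shScamp1 replicate 3. EGR4 was at 0.555 to 0.823 FPKM in shNC and at 0.633 to 0.835 FPKM in shScamp1 libraries, with no call. EGR2 was at 0.259 to 0.404 FPKM and EGR3 at 0.0423 to 0.104 FPKM over the libraries, and neither was tested.

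Of the FOS family, whose proteins pair with JUN proteins to form AP-1, FOSL2 rose and made up 53.3% to 64.5% of the family's FPKM. FOSL2 lies on chromosome 2 from 28392448 to 28417312. It was at 27.1, 26.7 and 27.4 FPKM in shNC and at 35.1, 40.5 and 36.1 FPKM in shScamp1 libraries. The shNC libraries differed by less than 1 FPKM and all shScamp1 libraries lay above them (log2 fold change 0.46, standard error 0.07, limma adjusted p = 0.0123). Its adjusted p was between 0.0597 and 0.0701 without any 1 of the shNC libraries. FOSL1 was at 19.7, 19.0 and 20.4 FPKM in shNC and at 25.8, 18.9 and 23.7 FPKM in shScamp1 libraries. ShScamp1 replicate 2 lay just below the shNC range and the other shScamp1 libraries above it. The log2 fold change was 0.20 with all libraries (limma adjusted p = 0.318) and 0.33 without replicate 2 (adjusted p = 0.0106). FOS itself was low, at 3.02, 3.24 and 3.10 FPKM in shNC and at 4.10, 2.62 and 3.25 FPKM in shScamp1 libraries, and was not called. FOSB, lower still at 0.443 to 0.625 FPKM in shNC and 0.776 to 0.923 FPKM in shScamp1 cells, did not overlap between the groups but was not called (log2 fold change 0.57, limma adjusted p = 0.154). Summed over the 4 genes, the FOS family came to 50.5 ± 0.937 FPKM in shNC and 64.2 ± 1.51 FPKM in shScamp1 cells (SD, n = 3 each; exact two-sided permutation test, p = 0.1).

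None of the JUN genes was called: 0 of 3 by limma, 0 at an unadjusted p under 0.05, and 0 with voom. Of all genes tested 14.0% were called, and 3 genes are too few to be set apart from that share. JUNB, the most abundant gene of all those examined, was at 129, 140 and 138 FPKM in shNC and at 144, 97.4 and 144 FPKM in shScamp1 libraries. HOOK2, on the opposite strand, overlaps 14.2% of its exonic bases. ShScamp1 replicates 1 and 3 lay just above the shNC range and replicate 2 far below it. Its log2 fold change was -0.10 (standard error 0.16), and 0.09 without replicate 2. JUND was at 60.6 to 66.2 FPKM in shNC and at 63.2 to 65.8 FPKM in shScamp1 libraries, and JUN at 15.2 to 16.3 and 14.4 to 18.2 FPKM. The sum of the 3 genes was 215 ± 8.51 FPKM in shNC and 210 ± 28.0 FPKM in shScamp1 cells (SD, n = 3 each), and 226 FPKM on average in shScamp1 replicates 1 and 3.

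PHLDA1, whose protein holds a pleckstrin homology-like domain, rose. Of the 7 IER and PHLDA genes it alone was called (14.3%, beside 14.0% of all genes tested). It lies on chromosome 12 from 76025447 to 76033932. It was at 45.8, 43.4 and 45.7 FPKM in shNC and at 76.2, 74.9 and 79.3 FPKM in shScamp1 libraries, from 5696 to 9363 reads per library. The spread within either group was a small part of the gap between them, and the log2 fold change was 0.77 (standard error 0.06, limma adjusted p = 0.00108). PHLDA3, a p53-induced inhibitor of AKT, was at 52.2, 50.7 and 54.3 FPKM in shNC and at 39.2, 25.9 and 39.5 FPKM in shScamp1 libraries. Every shScamp1 library was lower, but their wide spread left it uncalled (log2 fold change -0.61, standard error 0.17, limma adjusted p = 0.0623). Without shScamp1 replicate 2 the log2 fold change was -0.41 and the adjusted p was 0.00184. PHLDA2, an imprinted gene known for limiting placental growth, was at 47.4, 47.3 and 51.6 FPKM in shNC and at 56.6, 52.9 and 56.4 FPKM in shScamp1 libraries (log2 fold change 0.18, limma adjusted p = 0.131).

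Of the IER genes, immediate-early response genes, IER5 was at 15.0, 14.8 and 17.8 FPKM in shNC and at 25.1, 19.0 and 27.5 FPKM in shScamp1 libraries. All shScamp1 libraries were above the shNC range, and the limma adjusted p was 0.0567 (log2 fold change 0.58, standard error 0.15). IER3 was at 40.3, 38.8 and 39.7 FPKM in shNC and at 52.4, 33.3 and 46.6 FPKM in shScamp1 libraries. IER2 was at 29.7, 31.7 and 34.6 FPKM in shNC and at 40.4, 21.6 and 37.7 FPKM in shScamp1 libraries. In both genes replicates 1 and 3 lay above and replicate 2 below every shNC library. IER5L was at 9.54 to 11.1 FPKM in shNC and at 9.07 to 10.1 FPKM in shScamp1 libraries. Without shScamp1 replicate 2, IER5 (log2 fold change 0.73, limma adjusted p = 0.00467), IER3 (0.32, adjusted p = 0.0124), IER2 (0.29, adjusted p = 0.0360) and PHLDA2 (0.21, adjusted p = 0.0262) were called higher, and IER5L (-0.14, adjusted p = 0.234) was not.

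**Figure D4:**
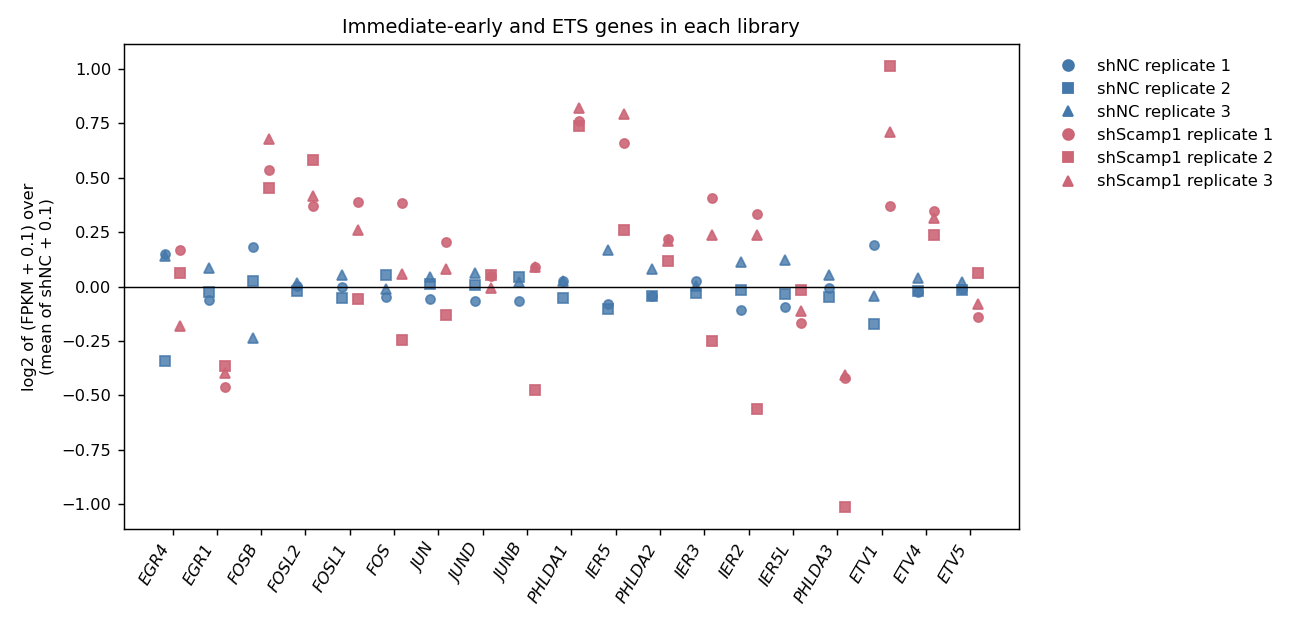
Log2 ratio of FPKM + 0.1 to the mean of the shNC libraries (vertical axis) for the EGR, FOS, JUN, IER, PHLDA and ETS genes tested, with each library as a symbol. ShScamp1 replicate 2 (red squares) lies apart from replicates 1 and 3 in JUNB, IER2, IER3 and PHLDA3 and close to them in EGR1 and PHLDA1.

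The level of shScamp1 replicate 2 relative to its group varied among the genes. In the 8 tested genes whose longest GENCODE transcript has 1 exon (JUN, JUNB, JUND, IER2, IER3, IER5, IER5L and SPRY4), its level had a median of 0.775 times the mean of the other shScamp1 libraries, against a median of 0.935 times in the 35 genes with more exons. The difference was not tested, and the 8 genes went both ways, with IER2 at 0.554 times and IER5L at 1.09 times that mean. It was the lowest of the 3 shScamp1 libraries in 25 of the 43 genes and the highest in 15, against 6869 and 6417 of all 15556 genes tested. The median GC content of the longest transcripts was 53.3% over the 43 genes and 48.5% over all genes tested. With each library's trends with GC content and gene length removed, 17 of the 43 genes were called. The calls over all genes rose as well, to 2906 of 15549, from 2177 of 15556. EGR1 was then the only earlier call lost, and DUSP2, FOSL1, IER5, PHLDA2 and PHLDA3 were gained; other causes of this library's position were not tested.

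Of the PEA3 group of ETS factors, ETV4 rose. It lies on chromosome 17 from 43527844 to 43579620. It was at 9.46, 9.50 and 9.91 FPKM in shNC and at 12.3, 11.3 and 12.0 FPKM in shScamp1 libraries. DHX8, on the opposite strand, overlaps 1.89% of its exonic bases. The groups were separate, but the gap was small (log2 fold change 0.30, standard error 0.06, limma adjusted p = 0.0300). The adjusted p was between 0.0716 and 0.133 without any 1 library other than shScamp1 replicate 2. ETV5, the close paralog of ETV4, was at 3.65, 3.64 and 3.74 FPKM in shNC and at 3.33, 3.84 and 3.48 FPKM in shScamp1 libraries, and was not called (log2 fold change -0.05, limma adjusted p = 0.701). ETV1 was near the filter, at 0.356 to 0.485 FPKM in shNC and at 0.562 to 0.934 FPKM in shScamp1 libraries (log2 fold change 0.71, limma adjusted p = 0.166).

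The 13 calls differed in how much they rested on single libraries and on the settings of the fit. DUSP4, DUSP5, DUSP6, DUSP3 and PHLDA1 were called in all 16 alternative analyses, with an adjusted p of at most 0.0431. The other 8 (DUSP1, DUSP9, SPRY1, SPRY3, SPRED2, EGR1, FOSL2 and ETV4) kept their direction in every alternative and lost the call in 3 to 8 of them. Losses without single libraries are given above. With the replicate number as a block, EGR1, ETV4, FOSL2, SPRED2, SPRY1 and SPRY3 also lost the call. ETV4, SPRED2 and SPRY3 lost it without a mean-variance trend, and SPRY1 and SPRY3 with no filter on level. A filter at 1 FPKM lost SPRY1. Fits on 5 libraries called 808 to 1030 genes in all when a shNC library or shScamp1 replicate 3 was left out, against 2177 with all 6.

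Of other genes of the pathway, taken from 6 lists of 113 genes written from family names and well known members, 99 were tested, 15 were called higher and 6 lower. That is 21.2% called, beside 30.2% of the genes above and 14.0% of all genes tested, which include biotypes other than protein-coding. Of the 22 genes of the RAS-ERK cascade itself, 21 were tested and 9.52% were called, beside 14.0% of all genes tested. These were GAB1, an adaptor of receptor tyrosine kinases (log2 fold change 0.59, limma adjusted p = 0.0322), and RASA1, a GTPase-activating protein of RAS (0.26, adjusted p = 0.0484), both higher. The median log2 fold change of the 21 was 0.14. The groups did not overlap for 13 of the 21, 12 of them higher, against 41.4% of all genes tested. Without shScamp1 replicate 2, GRB2, SHC1, HRAS, NRAS and MAPK3 were also called higher and PEBP1 lower (limma adjusted p from 0.0023 to 0.032). The background was then 27.8%. Of 14 tested genes of the JNK, p38 and ERK5 cascades, MAP3K5, the stress-activated kinase ASK1, went up to 9.24 ± 1.01 FPKM in shScamp1 cells, against 4.95 ± 0.268 FPKM in shNC (SD, n = 3 per group, log2 fold change 0.88, limma adjusted p = 0.00314). MAPK12 (-0.90, adjusted p = 0.0154) and MAPK11 (-0.59, adjusted p = 0.0159), both p38 kinases, fell. The more abundant p38 genes MAPK14 (mean 7.51 FPKM in shNC and 7.05 FPKM in shScamp1) and MAPK13 (8.72 and 8.64 FPKM) were not called. The kinases and nuclear factors activated by ERK held 4 genes called higher and 1 lower among 15 tested. ELK3 (log2 fold change 0.46), ETS1 (0.50), ETS2 (0.27) and RPS6KA4 (0.34) were higher, and ELK1, a partner of SRF at CArG boxes, was lower (-0.42, limma adjusted p = 0.0208). ETS2, RPS6KA4, MAPK13, MAPK14 and the RAS-ERK genes other than GAB1 and RASA1 are named after their values were seen.

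Of 28 other immediate-early and growth-factor-induced genes tested, 6 were called higher and 2 lower, and their median log2 fold change was 0.23. KLF6, a zinc-finger factor, was at 6.88 ± 0.340 FPKM in shNC and rose to 12.9 ± 0.489 FPKM in shScamp1 cells (SD, n = 3 per group; log2 fold change 0.90, limma adjusted p = 0.000997). ERRFI1, a feedback inhibitor of EGFR and ERBB2, was at 4.61 ± 0.389 FPKM in shNC and rose to 8.83 ± 0.813 FPKM in shScamp1 cells (SD, n = 3 per group; log2 fold change 0.92, limma adjusted p = 0.00295), and TRIB1, a pseudokinase, rose with a log2 fold change of 0.43 (adjusted p = 0.0149). The lower genes, named after their values were seen, were the antiproliferative gene BTG2 (log2 fold change -0.81, limma adjusted p = 0.0236) and ZFP36L2 (-0.28, adjusted p = 0.0322), which binds AU-rich elements of mRNA. Of 8 tested partners of AP-1, BATF2 was called (log2 fold change 1.06, limma adjusted p = 0.0392), and of 13 other phosphatases tested, STYX (0.51, adjusted p = 0.0116), a catalytically inactive relative of the DUSPs, rose and PTP4A3 (-0.38, adjusted p = 0.0387), a phosphatase linked to metastasis, fell. Of the list genes named and called with all libraries, MAP3K5, KLF6 and ERRFI1 were called in all 6 fits that each left out 1 library. The others were called in 1 to 3 of these fits. The pooled counts moved with single libraries, from 35 higher and 11 lower without shScamp1 replicate 2 to 3 higher and 0 lower without shNC replicate 2 or without shNC replicate 3.

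**Figure D5:**
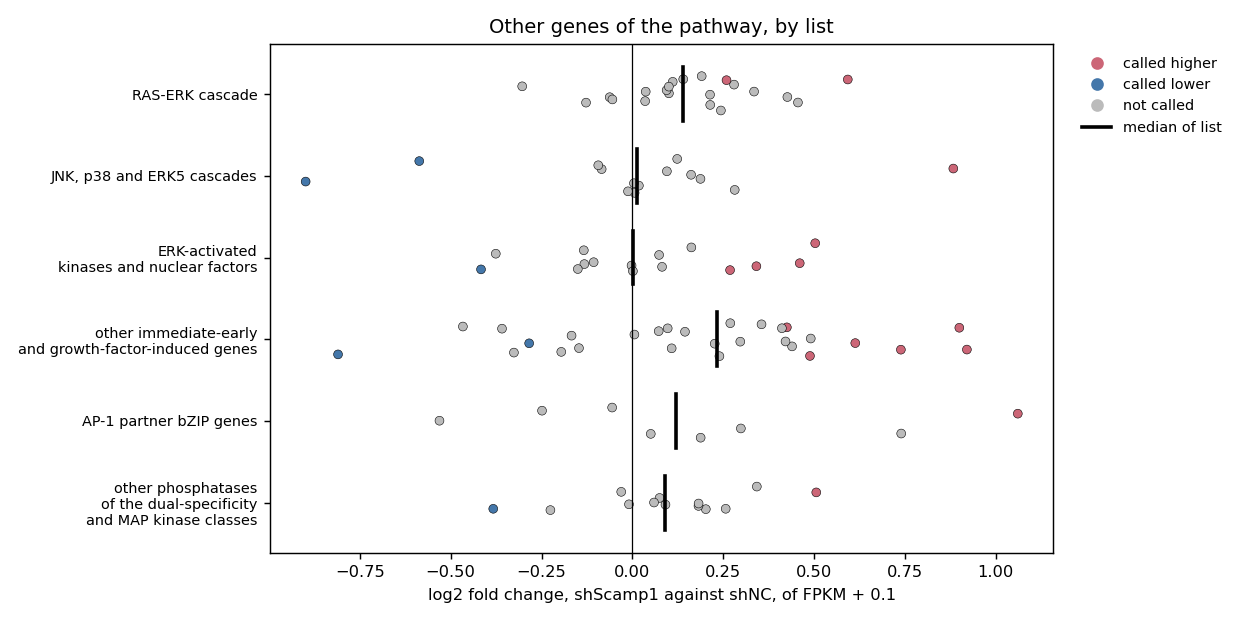
Log2 fold change of FPKM + 0.1 (horizontal axis) of the 99 tested genes of the 6 pathway lists (rows), red where called higher, blue where called lower and grey where not called; the vertical bar is the median of a list. The medians lie between 0.002 and 0.233, and most points of the RAS-ERK cascade are grey.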

How the data were processed

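RNA of 3 shNC and 3 shScamp1 libraries of NCI-N87 cells was sequenced and analysed by Novogene. The deposited table gives FPKM for each gene in each library, beside the coordinates, length and biotype of the gene. The submitters' processing notes name HISAT2 2.0.5, featureCounts 1.5.0-p3, DESeq2 1.20.0 and hg38, without roles. All 58735 gene coordinates equalled those of GENCODE 29, while strandedness is not given in the sources used here.

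FPKM multiplied by gene length came out as whole steps within each library (tolerance 0.02) for 100.0% of values above 0, from which reads were recovered. The deposited values already carried a scaling between libraries, and no other was added. Reads on genes were 14311769 to 15988700 per library, which limits genes with few reads.

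log2(FPKM + 0.1) was fitted in R 4.3.3 with limma 3.58.1 (lmFit, eBayes with trend) where the mean over libraries reached 0.5 FPKM, shScamp1 against shNC, with Benjamini-Hochberg adjustment over 15556 genes; fold changes of low genes are understated on this scale. Family sums and shares were compared with exact two-sided permutation tests. The fit was run on simulated reads, where planted changes exceeded those of all 52 genes but DUSP4 and no library stood apart. That run does not bear on smaller changes. Promoters were read from RefSeq windows in Python 3.11.15 with pandas 2.3.3, and SciPy 1.17.1 was used for permutation. The 52 genes, the lists and the rule for named genes (each of the 52; of other lists, differentially expressed genes or up to 3 with the smallest p) were chosen with earlier results of these data known. Alternatives covered the pseudocount, filter, biotype, scaling, trend, voom, a replicate block and each library left out. Removal of GC and length trends was added after the data were seen.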

Additional observations from a re-analysis of the deposited data

How the results depend on the processing

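SCAMP1 was called lower in all 16 alternatives, and 575 of 684 recomputed fold changes kept their sign and call, 48 lost the call, 25 gained it and 36, in 15 genes, changed sign with no call in either fit. The counts of 10 genes called higher and 3 lower became 6 and 1 with the replicate number as a block. Deviations from the group mean had correlations of -0.035, 0.032 and 0.067 between libraries of the same number. Between libraries of different numbers they were -0.084 to 0.054. With 3 libraries per group these values cannot tell whether the numbers pair the libraries, and the labels do not say. Leaving out single libraries gave 5 to 15 higher and 0 to 5 lower, where fewer samples enter the fit. Over all genes the 2177 calls became 2759 with voom on the recovered reads and 2906 with trends removed. They became 958 with the replicate block and 808 to 4330 without single libraries. Voom, and protein-coding genes only, each called 5 lower of the genes examined. ETV4 and SPRED2 lost their calls with total-read scaling. Removal of GC and length trends left 2 genes above an absolute log2 fold change of 1, DUSP4 and DUSP5. The pathway lists, with 15 higher and 6 lower, gave 6 and 3 with no filter, 9 higher with total-read scaling, 4 and 0 with the replicate block, 25 higher with trends removed, and 3 to 35 higher and 0 to 11 lower without single libraries.

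With total-read scaling the log2 ratio of family sums was 0.21 for the phosphatases, 0.12 for Sprouty and SPRED, 0.27 for FOS and -0.48 for EGR genes, against 0.28, 0.19, 0.35 and -0.40. The mean log2 difference over tested genes was 0.37, 0.017 and -0.19 for phosphatases, Sprouty and SPRED, and EGR genes. Uncalled genes that changed sign with total-read scaling were EGR4 (-0.032), FOS (-0.0067), IER2 (-0.070), JUND (-0.043), JUN (-0.022) and DUSP7 (-0.058), and with trends removed IER5L (0.036), JUNB (0.056), SPRY2 (0.066) and DUSP8 (0.050). With single libraries left out the log2 fold changes ranged from -0.32 to 0.024 for DUSP12, -0.071 to 0.20 for DUSP18, -0.29 to 0.0082 for DUSP22, -0.058 to 0.069 for DUSP7, -0.076 to 0.075 for DUSP8, -0.13 to 0.13 for EGR4, -0.093 to 0.22 for FOS, -0.16 to 0.29 for IER2, -0.0069 to 0.32 for IER3, -0.023 to 0.14 for JUN, -0.19 to 0.090 for JUNB, -0.0015 to 0.063 for JUND, -0.11 to 0.099 for SPRED1 and -0.070 to 0.12 for SPRY2. Where no construction of the alternative shows it, the cause was not tested. Depth limits SPRY1, DUSP10, EGR2 and other genes with few reads.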
